A study of Mus musculus with 16 samples.

Results

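The genes described here are the Wnt ligands, receptors and transducers that the deposited table lists for embryonic mouse atria and ventricles. They were chosen by symbol alone: the Wnt, Frizzled, Dickkopf, R-spondin and Dishevelled families plus named co-receptors, antagonists, transducers and processing proteins, with the secreted Frizzled-related proteins left out. The rule found 47 of 16118 listed genes. By role they were 10 Wnt ligands, 2 proteins of ligand secretion (Porcn, Wls), 10 Frizzled receptors, 5 co-receptors (Lrp5, Lrp6, Ror1, Ror2, Ryk), 3 R-spondins, 4 secreted antagonists (Dkk2, Dkk3, Wif1, Notum), 2 ligases of receptor turnover (Znrf3, Rnf43), 7 cytoplasmic transducers (Ctnnb1, Apc, Axin1, Axin2, Dvl1, Dvl2, Dvl3) and 4 transcription factors of the TCF/LEF family. Of these, 45 had a mean of at least 1 CPM (reads of a gene scaled to a common library size) over all libraries and were tested. Wnt7b, at a mean of 0.782 CPM, and Notum, at 0.972 CPM, fell below that level and were not tested.

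The study took 8 mouse embryos at E15.5, and each gave 1 atrial and 1 ventricular library of polyadenylated RNA. The 4 double knockout embryos (dKO) were Meis1flox/flox; Meis2flox/flox; aMHC tg/wt, which carry Cre recombinase under the promoter of alpha-myosin heavy chain, a cardiomyocyte promoter. The 4 controls carried the same floxed alleles without Cre (aMHC +/+). Meis1 and Meis2 encode homeobox transcription factors of the TALE class. Presence of Cre and deletion of both genes therefore cannot be told apart in any comparison, and cells other than cardiomyocytes are not the target of this Cre. The design text speaks of constitutive or inducible deletion, and the labels do not say which applies here. The study compares dKO with control tissue in each chamber, and it also allows a comparison of ventricle with atrium. The outflow tract had been removed, so the libraries hold whole atria or whole ventricles with all their cell types.

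Wnt proteins are lipid-modified by Porcn, carried to the surface by Wls and bound by Frizzled receptors together with Lrp5 or Lrp6. In the canonical branch this stops the destruction complex of Axin and Apc from removing beta-catenin (Ctnnb1), which then acts with TCF/LEF factors on target genes, among them Axin2, Lef1, Rnf43 and Znrf3, which feed back on the pathway. In other branches, Wnt5a and Wnt11 with Ror1, Ror2 or Ryk act on cell shape and polarity, and in the heart both branches are known from early cardiac specification, from outflow tract and valve formation and from epicardial signalling.

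Library depth, as reads recovered from the CPM of the listed genes, was between 7.88 and 23.0 megareads. The 4 dKO ventricles (7.88 to 14.3 megareads) were all shallower than the 4 control ventricles (15.6 to 23.0 megareads). The CPM of the listed genes summed to 753687 to 782986 in atria and 804313 to 841274 in ventricles. The part of this in small chamber differences was not tested beyond the other scalings given below. The detection floor was set at 3 reads, or 0.110 to 0.312 CPM depending on the library, which covers counting error only. Meis1 stood at 26.1 ± 3.19 CPM (SD, n = 4) in dKO atria against 40.4 ± 2.61 in control atria (two-sided exact permutation p = 0.0286, the smallest that 4 against 4 allows), and at 40.9 ± 2.41 against 41.5 ± 3.96 CPM in ventricles (exact permutation p = 0.8286). Meis2 stood at 23.4 ± 2.85 against 39.2 ± 3.46 CPM in ventricles (exact permutation p = 0.0286) and at 26.5 ± 1.90 against 25.4 ± 2.05 CPM in atria (exact permutation p = 0.457). These totals are over the whole gene, so reads outside the deleted exons would count toward them. The part of such reads, and of cells that this Cre does not target, was not tested. A list of 6 ventricular myocyte markers summed to 190 to 374 CPM over the atrial libraries and 6762 to 8792 CPM over the ventricular ones, as the tissue labels say. The protocol describes 4 litters with 1 control and 1 dKO embryo each, whereas the numbers that start the titles cover 1 dKO embryo, 2 of each genotype, and 2 control embryos with 1 dKO embryo. In bulk tissue, fewer cells of a type and less RNA per cell cannot be told apart.

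Divided by exon length, the members spanned a wide range of levels. Ctnnb1 had the highest level in every group, with 118 CPM per kb of exon in control atria and 154 in control ventricles. Dkk3, a Dickkopf family protein, followed in control atria with 85.7 CPM per kb (range 69.5 to 98.8) but had 15.52 (14.5 to 17.1) in control ventricles. Among the Frizzled receptors of control atria, Fzd1 (14.97 CPM per kb, range 14.5 to 16), Fzd7 (13.98, range 13.1 to 15.52) and Fzd2 (13.3, range 12.8 to 13.7) overlapped in part with their neighbours in this order, and Fzd4 (7.94) stood below all of them. In control ventricles the order was Fzd2 (23.9, range 21.5 to 25.2), Fzd1 (15.9, range 13.9 to 17.7) and Fzd4 (9.14, range 8.85 to 9.54), with no overlap between neighbours, and Fzd7 had 2.21 CPM per kb. In the dKO libraries Fzd1 was the highest Frizzled in both chambers, with 25.8 CPM per kb (24.0 to 26.5) in atria and 27.9 (25.9 to 30.6) in ventricles. The highest ligands of control atria were Wnt5a (5.14 CPM per kb, range 4.77 to 5.88) and Wnt5b (4.69, range 4.23 to 5.33), whose ranges overlapped. In dKO atria Wnt5b (4.99, range 4.51 to 5.30) lay above Wnt5a (3.30, range 2.99 to 3.77), and Wnt11 (4.10, range 3.67 to 4.54) overlapped with both in part.

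**Figure D1:**
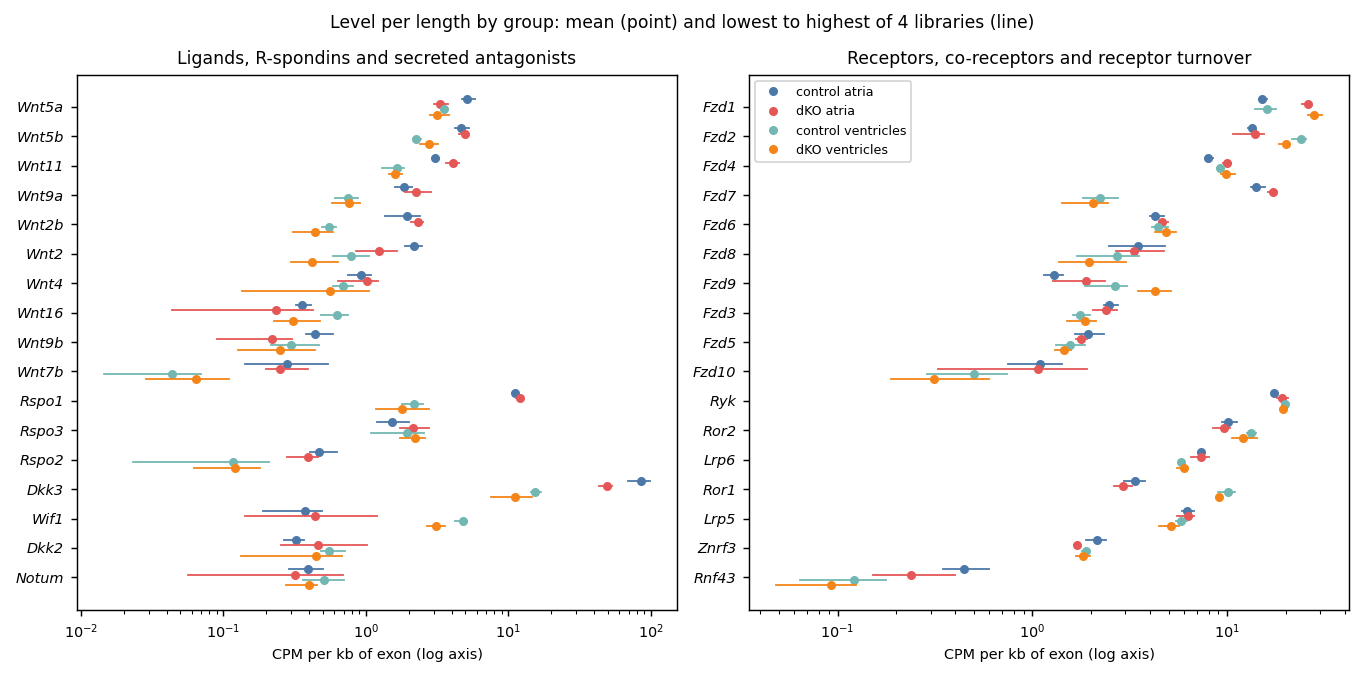
Level of the ligands, R-spondins and secreted antagonists (left) and of the receptors, co-receptors and turnover ligases (right) in CPM per kb of exon on a log axis, with a point at the mean and a line from the lowest to the highest of 4 libraries for each of the 4 groups. Dkk3 reaches 85.7 CPM per kb in control atria, and Fzd1 is the highest Frizzled in both dKO groups.

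In dKO atria, 3 Frizzled receptors and Wnt11 were higher than in control atria, and Wnt5a, Wnt2, Dkk3 and the feedback gene Axin2 were lower. Fzd1 rose to 1.72 times its control level, and Dkk3 fell to 57.8%, Wnt5a to 64.1%, Axin2 to 66.8% and Wnt2 to 57.0% of theirs. These 8 were called among 45 tested members (17.8%), 4 higher and 4 lower, where 7.47% of all 13950 genes tested were called, 4.04% higher and 3.43% lower (limma moderated test, adjusted p under 0.05). In all 8 the 4 dKO libraries did not overlap with the 4 control libraries. Uncalled members such as Tcf7l1, Znrf3, Wnt9b and Ryk did not overlap either. The share without overlap was not counted over all genes, so it adds no support to the calls. The median log2 difference over the 45 members was -0.02 beside -0.005 over all genes tested. The number called fell to 5 without control embryo 4, when Axin2, Wnt11 and Wnt2 were lost, and was 5 within the title number that holds 2 embryos of each genotype. Differences below are on the log2(CPM + 1) scale, given with their standard error (SE), and understate the change of genes with few reads.

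Among ligands, Wnt5a (ENSMUSG00000021994, chr14:28504750-28527448, plus strand of GRCm38 in GENCODE M21), which mostly signals outside the beta-catenin branch, had 38.6, 46.0, 37.3 and 38.9 CPM in control atria and 29.5, 23.4, 25.2 and 25.1 CPM in dKO atria. Every dKO atrium lay below every control atrium, and the nearest pair was 29.5 and 37.3 CPM. The difference was -0.62 ± 0.09 (adjusted p = 0.00135). Wnt2 (ENSMUSG00000010797, chr6:17988940-18030585, minus strand), a ligand of the beta-catenin branch, had 5.36, 5.58, 4.25 and 4.41 CPM in control atria and 2.85, 1.92, 3.73 and 2.68 CPM in dKO atria, from 47 to 134 reads per library. The lowest control and the highest dKO library were close, and the difference was -0.65 ± 0.16 (adjusted p = 0.0350). Its call was lost in edgeR on recovered reads (adjusted p = 0.0537), within 1 title number (0.0995) and without any 1 of 6 embryos, dKO 1, 2 or 4 or control 1, 2 or 4 (0.0531 to 0.108).

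Wnt11 (ENSMUSG00000015957, chr7:98835112-98855195, plus strand), another ligand that acts mainly outside the beta-catenin branch, went the other way, with 12.97, 13.3, 12.1 and 12.3 CPM in control atria and 18.8, 15.2, 17.3 and 16.6 CPM in dKO atria. All 4 dKO atria lay above the controls, by 0.39 ± 0.08 (adjusted p = 0.0171), a call lost without dKO embryo 3 (0.0555) or control embryo 4 (0.0514) and within 1 title number (0.215). Wnt9b, a ligand with at most 2.67 CPM, had 1.73, 1.83, 2.67 and 1.75 CPM in control atria and 0.408, 1.07, 1.14 and 1.38 CPM in dKO atria, without overlap, but did not pass the test (-0.60 ± 0.20, adjusted p = 0.106). The other 5 tested ligands (Wnt2b, Wnt4, Wnt5b, Wnt9a, Wnt16) were not called, with differences from -0.40 to 0.26. Neither protein of ligand secretion was called by limma, edgeR or DESeq2 (0 of 2, with 0 at an unadjusted p under 0.05), and Wls, the carrier of Wnt proteins, had 137 ± 8.28 CPM in control atria and 144 ± 9.60 in dKO atria.

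Fzd1 (ENSMUSG00000044674, chr5:4753839-4758035, minus strand) had the smallest adjusted p of all members. It measured 61.9, 67.1, 60.9 and 61.4 CPM in control atria and 109.9, 111, 111 and 101 CPM in dKO atria. The groups were far apart, with 4 values near 63 CPM against 4 near 108 CPM, and the difference was 0.78 ± 0.06 (adjusted p = 1.33e-05). Fzd4 (ENSMUSG00000049791, chr7:89404355-89413134, plus strand), which also serves as receptor of norrin, had 53.1, 56.7, 51.5 and 52.2 CPM in control atria and 64.1, 70.2, 69.0 and 64.6 CPM in dKO atria (0.32 ± 0.06, adjusted p = 0.00503). All 4 dKO atria lay above the controls, each by a smaller margin than for Fzd1.

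Fzd7 (ENSMUSG00000041075, chr1:59482424-59486955, plus strand) had 70.3, 59.6, 60.3 and 63.2 CPM in control atria and 73.1, 81.5, 80.9 and 76.7 CPM in dKO atria (0.30 ± 0.07, adjusted p = 0.0172). The highest control and the lowest dKO library lay close together, and the call was lost without dKO embryo 2 or 3 or control embryo 2 or 3 (adjusted p = 0.0534 to 0.0633), within 1 title number (0.0512) and with all 16 libraries in 1 fit (0.193). The 10 Frizzled receptors summed to 316 to 330 CPM in control atria and 377 to 410 CPM in dKO atria. That sum includes the 3 called receptors, so it is no separate result on the family. By gene, 6 of the 10 differences were positive and 4 negative, with a median of 0.08 beside -0.005 over all genes tested. The remaining 7 receptors were not called, and their differences ran from -0.14 for Fzd10 to 0.39 for Fzd9.

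**Figure D2:**
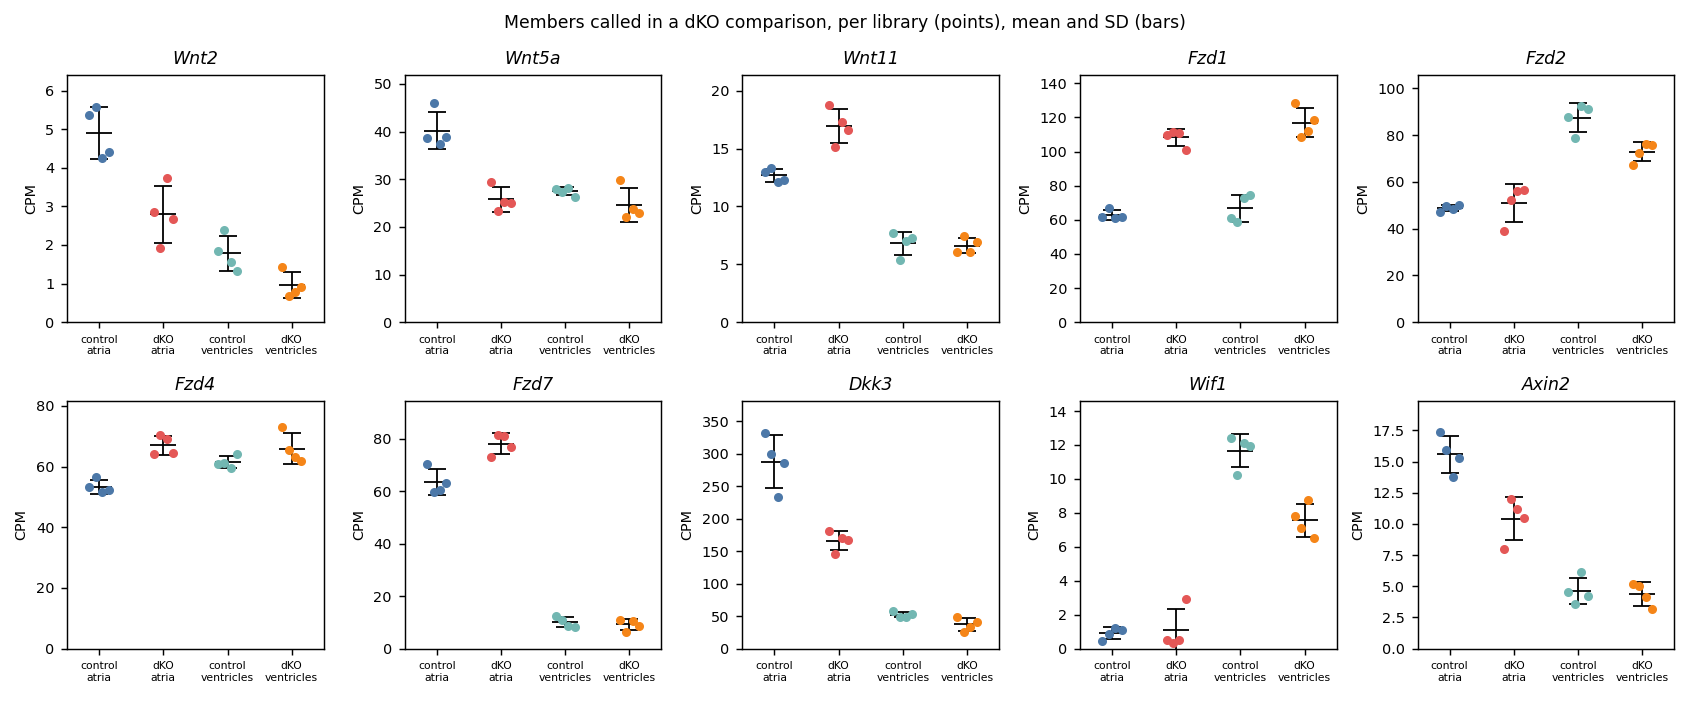
CPM of the members called in a dKO comparison, with 1 point per library and a bar at the mean ± SD of 4 libraries for control atria, dKO atria, control ventricles and dKO ventricles. Fzd1 is high in dKO libraries of both chambers, and Wnt5a separates by genotype in atria.

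The promoters of 3 of these genes are shown as examples of both directions: Fzd1 and Wnt11 rose, while Axin2, a textbook target of beta-catenin and TCF/LEF, fell. Each is the 250 bases before the RefSeq start on GRCm38.p6, written 5′ to 3′ on the strand of the gene: Fzd1 at chr5:4758217-4758466 (minus strand), Wnt11 at chr7:98834862-98835111 (plus strand) and Axin2 at chr11:108920099-108920348 (plus strand). Capitals mark TCAAAG, the reverse complement of CTTTGA, a core of TCF/LEF motifs.
Fzd1: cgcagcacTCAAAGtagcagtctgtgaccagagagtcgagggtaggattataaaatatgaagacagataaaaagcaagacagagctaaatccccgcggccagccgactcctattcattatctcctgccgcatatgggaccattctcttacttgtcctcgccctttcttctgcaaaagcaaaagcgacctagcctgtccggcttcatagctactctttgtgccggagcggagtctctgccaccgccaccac
Wnt11: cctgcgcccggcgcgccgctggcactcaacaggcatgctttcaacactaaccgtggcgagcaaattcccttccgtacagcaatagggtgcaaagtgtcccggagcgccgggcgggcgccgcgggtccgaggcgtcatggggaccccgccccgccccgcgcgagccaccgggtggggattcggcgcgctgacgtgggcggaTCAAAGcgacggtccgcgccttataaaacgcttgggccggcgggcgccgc
Axin2: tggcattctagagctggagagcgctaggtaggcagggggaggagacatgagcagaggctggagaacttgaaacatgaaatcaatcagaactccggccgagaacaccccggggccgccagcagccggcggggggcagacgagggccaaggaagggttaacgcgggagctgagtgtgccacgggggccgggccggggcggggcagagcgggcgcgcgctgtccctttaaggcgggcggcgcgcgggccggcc
Both strands were searched for CTTTGA and for TGACAG, a core of Meis and related TALE motifs, and no matches of the 2 motifs overlapped. The match lies at -242 to -237 from the RefSeq start in Fzd1 and at -50 to -45 in Wnt11, and the Axin2 window holds neither motif. Neither motif lies in the windows of Fzd4 and Fzd7, which also rose, or of Wnt2, which fell. A further Wnt11 window (chr7:98838595-98838844) holds none. A window of Lef1, which had a lower mean in dKO atria, holds CTTTGA at 2 places. The genes shown therefore do not stand for all members that rose or fell. RefSeq windows were matched for 31 of 47 members. The 31 members had 41 windows. CTTTGA occurred in 5 of the 41 (of Fzd1, Lef1, Ror1, Wnt5b and Wnt11) and TGACAG in 3 of the 41 (of Lef1, Tcf7l1 and Wnt4). Of all 32851 windows of this length, 13.8% and 15.9% hold them. A match of letters is a description and says nothing of binding.

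No co-receptor was called in atria by limma, edgeR or DESeq2 (0 of 5, with Ryk at an unadjusted p under 0.05). Lrp6, the co-receptor with the highest mean count, stood at 100.2 ± 2.46 CPM in control atria and 100.1 ± 8.19 CPM in dKO atria, a difference of -0.01 ± 0.06 with a 95% interval from -0.14 to 0.13. The R-spondins, which raise Wnt signalling by binding Lgr receptors and the ligases Znrf3 and Rnf43, were not called by any of the 3 tools (0 of 3, with Rspo3 at an unadjusted p under 0.05). Rspo1 had 21.6 ± 0.745 CPM in control atria and 23.4 ± 1.28 CPM in dKO atria.

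Dkk3 (ENSMUSG00000030772, chr7:112116017-112159057, minus strand), a divergent Dickkopf protein, had the highest level per kb of the secreted antagonists. It measured 332, 299.7, 233 and 287 CPM in control atria and 181, 146, 170.5 and 168 CPM in dKO atria. The dKO values lay close together and below all controls, which were more spread, and the difference was -0.78 ± 0.10 (adjusted p = 0.000814). The antagonists Dkk2 (0.20 ± 0.27, adjusted p = 0.757) and Wif1 (-0.02 ± 0.32, adjusted p = 0.985) lay between 0.344 and 1.37 CPM in all atria but dKO atrium 4, which had 3.78 and 2.93 CPM. Notum, an enzyme that removes the lipid from Wnt proteins, had 0.697 to 1.21 CPM in control atria and 0.136 to 1.68 CPM in dKO atria, the lowest on 2 reads, under the floor.

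Axin2 (ENSMUSG00000000142, chr11:108920349-108950783, plus strand), both a scaffold of the destruction complex and a feedback target, had 17.4, 15.95, 13.8 and 15.3 CPM in control atria and 8.02, 12.0, 11.2 and 10.4 CPM in dKO atria. All dKO values lay below the controls, the nearest being 12.0 and 13.8 CPM, and the difference was -0.55 ± 0.12 (adjusted p = 0.0194). The call was lost without control embryo 1, 2 or 4 (adjusted p = 0.0521 to 0.0638). The other 6 cytoplasmic transducers were not called, and all had differences between -0.14 and 0.00. Ctnnb1, which encodes beta-catenin, had 612 ± 10.9 CPM in control atria and 603 ± 7.17 CPM in dKO atria (-0.02 ± 0.05, 95% interval -0.13 to 0.09).

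The other known feedback genes among the members had lower means in dKO atria but did not pass the test. Znrf3, a ligase that removes Frizzled receptors from the surface, had 16.9, 14.8, 16.9 and 18.9 CPM in control atria and 12.9, 13.8, 13.8 and 13.2 CPM in dKO atria, with no overlap (-0.30 ± 0.09, adjusted p = 0.0588). It was called by edgeR (adjusted p = 0.0402) and DESeq2 (0.0282), and by limma at a mean of at least 5 CPM (0.0483), without control embryo 2 (0.0438) and with all 16 libraries in 1 fit (0.0173). Rnf43, its relative, had 2.89, 2.27, 2.57 and 3.91 CPM against 1.06, 0.992, 1.53 and 2.63 CPM, so that dKO atrium 4 lay within the controls (-0.64 ± 0.22, adjusted p = 0.108). Without dKO embryo 4 it was called (-0.82, adjusted p = 0.0216).

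Lef1, a transcription factor of the pathway that is also a target, had 3.01, 3.99, 4.60 and 3.86 CPM in control atria and 1.06, 1.36, 3.17 and 2.78 CPM in dKO atria (-0.71 ± 0.23, adjusted p = 0.0981). Here dKO atria 1 and 2 were low and 3 and 4 lay near the lowest control. Tcf7l1, a family member known mostly as a repressor, ran from 26.9 to 29.0 CPM in control atria and from 30.6 to 33.9 CPM in dKO atria, without overlap (0.22 ± 0.06, adjusted p = 0.0527). It was called by DESeq2 (adjusted p = 0.0341) and by limma at a mean of at least 5 CPM (0.0453). In the fit of the 8 atrial libraries no TCF/LEF member was called by limma or edgeR (0 of 4, with Lef1 and Tcf7l1 at an unadjusted p under 0.05). With all 16 libraries in 1 limma fit and embryo as a block, Lef1 (-0.71, adjusted p = 0.0362) and Tcf7l1 (0.22, adjusted p = 0.0244) were called.

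**Figure D3:**
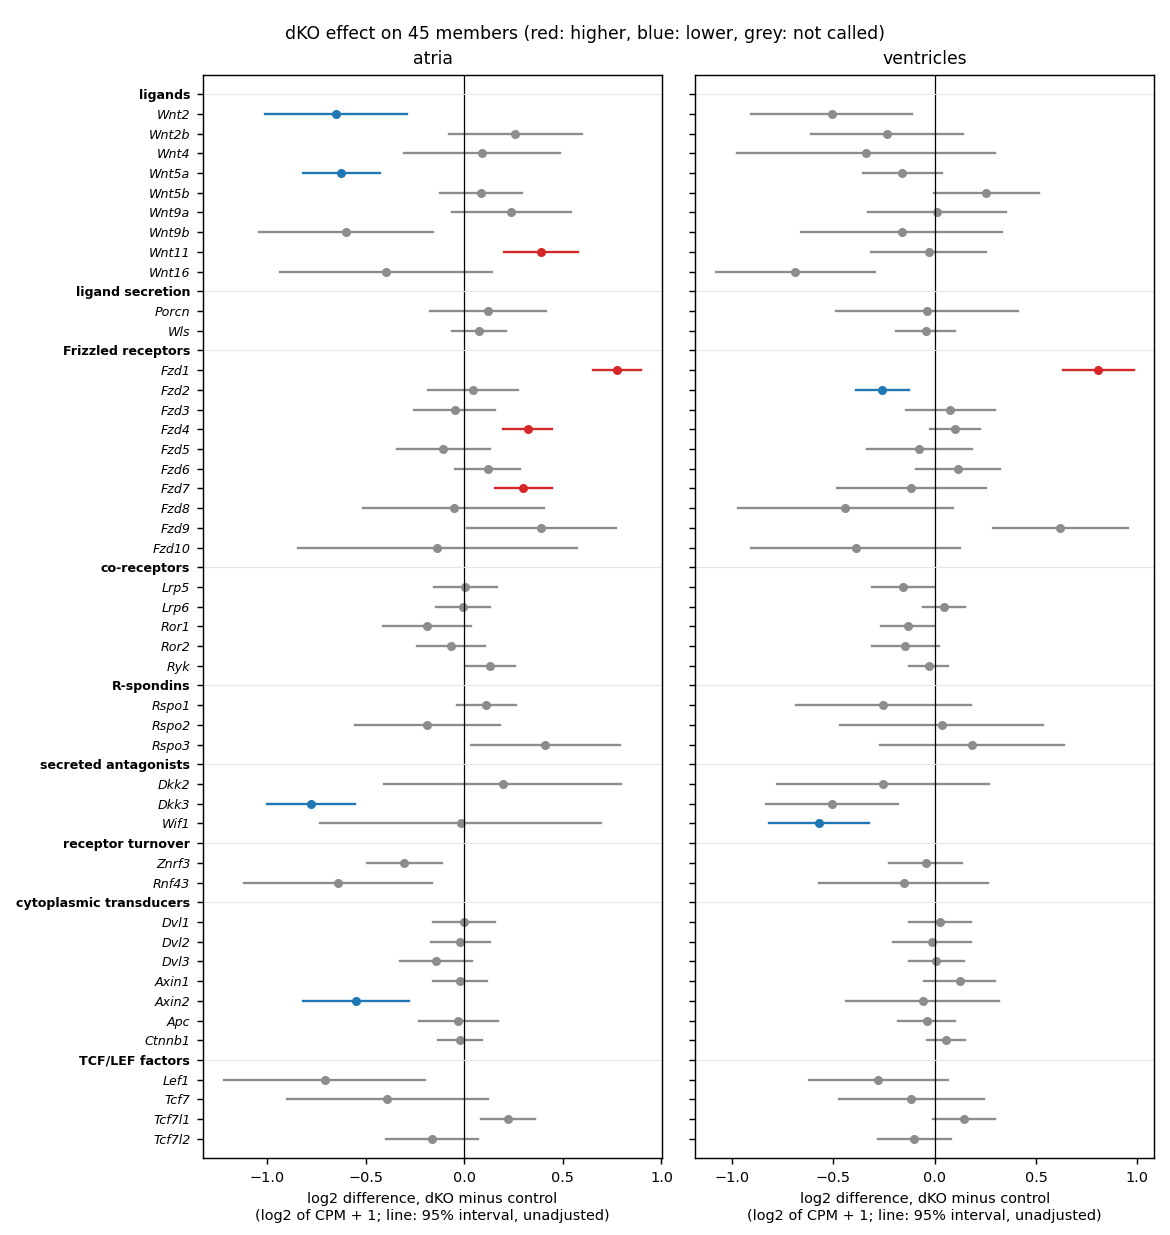
Log2 difference of dKO minus control on the log2(CPM + 1) scale for the 45 tested members by role, with lines over the unadjusted 95% interval, red for called higher in dKO, blue for called lower and grey for not called, in atria and in ventricles. Fzd1 lies at 0.78 and 0.81, while most other members lie within 0.5 of 0.

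Marker genes of several cell types also moved in dKO atria. The 6 smooth muscle and pericyte markers summed to 664 to 760 CPM in control atria and 965 to 1259 CPM in dKO atria. Their mean log2 level rose by 0.61 (exact permutation p = 0.0286). Of the 6, 4 were called higher, and Cnn1 lay the other way without a call (-0.27). The 7 epicardial markers, of which 1 was called higher, summed to 338 to 408 against 418 to 502 CPM (0.27, exact permutation p = 0.0286). For the 8 fibroblast markers, 2 of them called higher, the mean differed by 0.37 (5339 to 7158 against 6181 to 10307 CPM, exact permutation p = 0.0857), and for the 6 macrophage markers, 1 of them called, by 0.38 (78.1 to 91.2 against 79.9 to 130 CPM, exact permutation p = 0.114). The 8 endothelial and endocardial markers, with 1 called lower, did not pass (0.06, exact permutation p = 0.571). Myocyte markers moved in both directions. Of 6 atrial ones, 2 were called higher and 1 lower (0.09, exact permutation p = 0.286). Of 6 ventricular ones, 1 was called higher and 2 lower (-0.09, exact permutation p = 0.6). The valve list, with 1 called lower (0.01, exact permutation p = 0.971), and the neural list (-0.22, exact permutation p = 0.657) did not pass. No marker was at 0 in all libraries. Their part in the atrial results of Fzd1, Fzd4, Fzd7, Wnt11, Wnt5a, Wnt2, Dkk3 and Axin2 was not tested.

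In dKO ventricles, Fzd1 was higher and Wif1 and Fzd2 were lower than in control ventricles. Fzd1 rose to 1.75 times its control level, and Wif1 fell to 64.8% and Fzd2 to 83.3%. These were 3 of 45 members (6.67%), 1 higher and 2 lower, where 2% of all genes tested were called, 0.989% higher and 1.01% lower. In all 3 the 4 dKO libraries did not overlap with the controls, which also held for the uncalled Fzd9 and Wnt16. Here too the share without overlap was not counted over all genes. The median over members was -0.06 beside -0.02 over all genes. The count was 1, Fzd1 alone, without dKO embryo 2 or control embryo 1, 3 or 4 and with all 16 libraries in 1 fit, and 5 with DESeq2, which added Fzd9 and Wnt16.

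Fzd1 had 61.2, 58.5, 72.8 and 74.4 CPM in control ventricles and 128, 109, 112 and 119 CPM in dKO ventricles. The lowest dKO library lay well above the highest control, and the difference was 0.81 ± 0.08 (adjusted p = 0.000228). Fzd2 (ENSMUSG00000050288, chr11:102604396-102608058, plus strand), another Frizzled receptor, had 87.5, 78.7, 92.3 and 91.1 CPM in control ventricles and 67.3, 72.2, 76.1 and 75.6 CPM in dKO ventricles. The lowest control and the highest dKO library were close (78.7 and 76.1 CPM), and the difference was -0.26 ± 0.06 (adjusted p = 0.0487). It was no longer called without any 1 of the embryos other than control 2 (adjusted p = 0.0702 to 0.149), with edgeR (0.0507), with no filter (0.0753), with the title number as a covariate (0.106), within 1 title number (0.630) or with all 16 libraries in 1 fit (0.198).

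Fzd9, a Frizzled receptor of lower level than Fzd1 or Fzd2 per kb, had 6.51, 4.29, 6.45 and 6.97 CPM in control ventricles and 9.48, 9.92, 8.02 and 11.7 CPM in dKO ventricles. All dKO values were higher, but the difference did not pass (0.62 ± 0.15, adjusted p = 0.0654). It was called by DESeq2 (adjusted p = 0.00468) and by limma once a term for the title number was added (0.68, adjusted p = 0.0462). The remaining 7 receptors had differences from -0.44 for Fzd8 to 0.12 for Fzd6 and were not called.

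Wif1 (ENSMUSG00000020218, chr10:121033960-121100650, plus strand), a secreted protein that binds Wnt ligands, had 12.4, 10.2, 12.1 and 11.9 CPM in control ventricles and 7.80, 7.12, 8.77 and 6.53 CPM in dKO ventricles. Every dKO ventricle lay below the controls, on 68 to 151 reads against 194 to 325, and the difference was -0.57 ± 0.11 (adjusted p = 0.0214). The call was lost without dKO embryo 2 or 4 or control embryo 1, 3 or 4 (adjusted p = 0.0503 to 0.0746), within 1 title number (0.524) and with all 16 libraries in 1 fit (0.382). Dkk3 had 57.4, 48.9, 49.3 and 53.0 CPM in control ventricles and 49.1, 25.5, 33.7 and 41.0 CPM in dKO ventricles. Here dKO ventricle 1 lay among the controls and the other 3 lay below them, and the difference did not pass (-0.51 ± 0.15, adjusted p = 0.135). It was called without dKO embryo 1 (-0.65, adjusted p = 0.0269), once a term for the title number was added (-0.62, adjusted p = 0.0229) and within 1 title number (-0.83, adjusted p = 0.0296).

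No ligand was called in ventricles by limma or edgeR (0 of 9, with Wnt16 and Wnt2 at an unadjusted p under 0.05), and DESeq2 called Wnt16. Wnt16 had 3.29, 2.71, 2.12 and 2.80 CPM in control ventricles and 1.04, 0.987, 1.24 and 2.07 CPM in dKO ventricles. The groups did not overlap but rested on 9 to 76 reads (-0.69 ± 0.18, adjusted p = 0.0841 in limma, 0.0463 in DESeq2). Without dKO embryo 4 limma called it (-0.83, adjusted p = 0.0396). Wnt5a, the ligand with the highest mean count, had 28.0, 27.4, 28.3 and 26.3 CPM in control ventricles and 29.9, 22.1, 23.8 and 22.8 CPM in dKO ventricles (-0.16 ± 0.09, adjusted p = 0.504). The highest of these 8 libraries was a dKO ventricle and the 3 lowest were too.

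In the other classes no member was called in ventricles by limma, edgeR or DESeq2. Of the 5 co-receptors, Ror1 and Lrp5 had an unadjusted p under 0.05, while the 2 secretion proteins, 3 R-spondins, 2 turnover ligases, 7 cytoplasmic transducers and 4 TCF/LEF factors had none. The highest in mean count of each class were Lrp6 (0.05), Wls (-0.04), Rspo1 (-0.25), Znrf3 (-0.04), Ctnnb1 (0.05) and Tcf7l1 (0.14 on the log2 scale). Axin2 had 4.55, 3.60, 6.12 and 4.19 CPM in control ventricles and 5.21, 5.04, 4.14 and 3.15 CPM in dKO ventricles. Its groups overlapped, and the difference was -0.06 ± 0.17, with a 95% interval from -0.44 to 0.32.

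Some chamber markers moved in dKO ventricles. The 6 atrial myocyte markers, 2 of them called higher, summed to 1846 to 2353 CPM in control and 4066 to 4789 CPM in dKO ventricles (0.31, exact permutation p = 0.0286). They did not move as a set: 3 had a positive and 3 a negative difference, from -0.51 to 1.90. The 6 ventricular myocyte markers, 2 of them called lower, had a mean lower by 0.24 (7841 to 8792 against 6762 to 7844 CPM, exact permutation p = 0.0286), and the smooth muscle, epicardial, fibroblast, macrophage and endothelial lists had exact permutation p from 0.171 to 0.886. Their part in the ventricular results of Fzd1, Wif1 and Fzd2, and that of the lower depth of dKO ventricles, was not tested.

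Whether the dKO difference itself differed between chambers was tested with all 16 libraries. Wnt5a was the 1 member called (2.22% of 45, beside 2.64% of all genes tested, 1.31% with a positive and 1.33% with a negative difference): its difference in ventricles exceeded that in atria by 0.46 ± 0.12 (adjusted p = 0.0434), from a lower level in dKO atria. The call was lost with no filter (adjusted p = 0.0586), with no block for the embryo (0.0813) and without any 1 of the embryos other than dKO 1 (0.0535 to 0.154). For Fzd1 the difference between chambers was 0.03 ± 0.10 (95% interval -0.18 to 0.24, adjusted p = 0.954), and for Dkk3 0.27 ± 0.19 (adjusted p = 0.596). Axin2 (0.49 ± 0.21, adjusted p = 0.295), Wnt11 (-0.42 ± 0.14, adjusted p = 0.151), Fzd4 (-0.22 ± 0.08, adjusted p = 0.148), Fzd2 (-0.31 ± 0.12, adjusted p = 0.225) and Wif1 (-0.55 ± 0.34, adjusted p = 0.541) did not pass, so a call in 1 chamber alone does not show a chamber difference for them.

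More members were called between control ventricles and control atria than between the genotypes. Atria held more Fzd7, Dkk3, Rspo1, Axin2 and Wnt2b, and ventricles more Wif1, Ror1, Fzd2 and Fzd9. Of 45 members 27 were called (60%), 10 higher and 17 lower in ventricles, where 46.9% of all genes tested were called, 26.4% higher and 20.5% lower. The median over members was -0.17 beside 0.03 over all genes. Among all genes the split of 3678 higher and 2865 lower became 3261 and 3172 with TMM scaling, and 2817 and 2883 with DESeq2. Among members it became 9 higher and 20 lower with TMM and 6 and 19 with DESeq2.

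The 6 members with the largest fitted difference toward atria begin with Fzd7. Fzd7 had 63.3 ± 4.91 CPM in control atria and 10.0 ± 1.97 CPM in control ventricles (SD, n = 4), a 6.33-fold difference (log2 -2.56 ± 0.13, adjusted p = 1.28e-11). Dkk3 had 288 ± 41.0 against 52.1 ± 3.98 CPM, 5.52-fold (-2.43 ± 0.13, adjusted p = 3.95e-11). Rspo1, the R-spondin with the highest level per kb, had 21.6 ± 0.745 against 4.21 ± 0.590 CPM, 5.12-fold (-2.12 ± 0.14, adjusted p = 8.92e-10). No atrial library of these 3 genes came near any ventricular one.

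Axin2 had 15.6 ± 1.49 CPM in control atria against 4.62 ± 1.07 CPM in control ventricles, 3.38-fold (-1.58 ± 0.15, adjusted p = 7.45e-08). Wnt2b, a ligand of the beta-catenin branch, had 8.17 ± 2.03 against 2.33 ± 0.269 CPM, 3.51-fold (-1.44 ± 0.16, adjusted p = 6.18e-07). Rspo2 had 2.42 ± 0.531 against 0.5995 ± 0.430 CPM (-1.13 ± 0.20, adjusted p = 0.000124), with 2 to 20 reads in control ventricles, 1 of which lay under the floor. The other called members with more in atria, in order of fitted difference, were Rnf43 (-1.12), Wnt2 (-1.09), Wnt9a (-1.04), Wnt5b (-0.94), Wnt11 (-0.82), Fzd10 (-0.80), Wnt5a (-0.53), Fzd3 (-0.48), Lrp6 (-0.34), Fzd5 (-0.29) and Tcf7l1 (-0.24). The call of Fzd10 was lost without any 1 of the 4 control embryos (adjusted p = 0.0577 to 0.141) and in edgeR (0.0512), and that of Fzd5 without control embryo 2 (0.102) or 3 (0.173). By role, 6 of 9 tested ligands were called higher in control atria and 1, Wnt16, in ventricles. Of all genes tested, 20.5% were called higher in atria and 26.4% in ventricles.

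Toward ventricles, Wif1 led with 0.458, 0.861, 1.20 and 1.12 CPM in control atria and 12.4, 10.2, 12.1 and 11.9 CPM in control ventricles, 12.8-fold (2.74 ± 0.24, adjusted p = 2.99e-08). Ror1, a receptor tyrosine kinase-like co-receptor of Wnt5a, had 19.4 ± 2.15 against 57.8 ± 4.76 CPM, 2.98-fold (1.53 ± 0.08, adjusted p = 2.74e-11). Fzd2 had 48.8 ± 1.36 against 87.4 ± 6.12 CPM (0.83 ± 0.08, adjusted p = 1.96e-07). In all 3 genes the chambers did not overlap.

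Fzd9 had 2.97 ± 0.281 CPM in control atria against 6.05 ± 1.20 CPM in control ventricles (0.81 ± 0.15, adjusted p = 0.000282), and Wnt16 1.55 ± 0.18 against 2.73 ± 0.480 CPM (0.54 ± 0.21, adjusted p = 0.0385). Ror2, the relative of Ror1, had 42.5 ± 3.37 against 56.4 ± 2.48 CPM (0.40 ± 0.08, adjusted p = 0.000356). Ctnnb1 (0.38), Fzd4 (0.20), Dvl3 (0.19) and Ryk (0.18) were also called higher in ventricles. In DESeq2 on recovered reads, which changes both test and scaling, Fzd4, Dvl3, Ryk and Wnt16 were not called (adjusted p = 0.0705 to 0.142), whereas with TMM scaling alone Dvl3 was the 1 call lost (0.0625). Dvl3 was also lost in edgeR (0.0919) and without control embryo 1, 3 or 4 (0.0610 to 0.178). Wnt16 was also lost in edgeR (0.109), at a pseudocount of 0.5 (0.0612), with no block for the embryo (0.0521) and without control embryo 1, 2 or 4 (0.117 to 0.171). The proteins of secretion were not called by limma (0 of 2, with Porcn at an unadjusted p under 0.05), while edgeR, DESeq2 and limma with TMM scaling each called Wls (-0.13 ± 0.06 and adjusted p = 0.0944 in limma, 0.0392 with TMM). Chamber and cell makeup differ together here. Between control chambers, where 46.9% of all genes tested were called, all 6 ventricular and all 6 atrial myocyte markers were called. So were 6 of 7 epicardial markers, all higher in atria, and 5 of 6 smooth muscle markers, 4 of them higher in ventricles. Of the other lists, 8 of 8 endothelial, 6 of 8 fibroblast, 4 of 6 valve, 2 of 6 macrophage and 4 of 4 tested neural markers were called. The part of these markers was not tested.

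**Figure D4:**
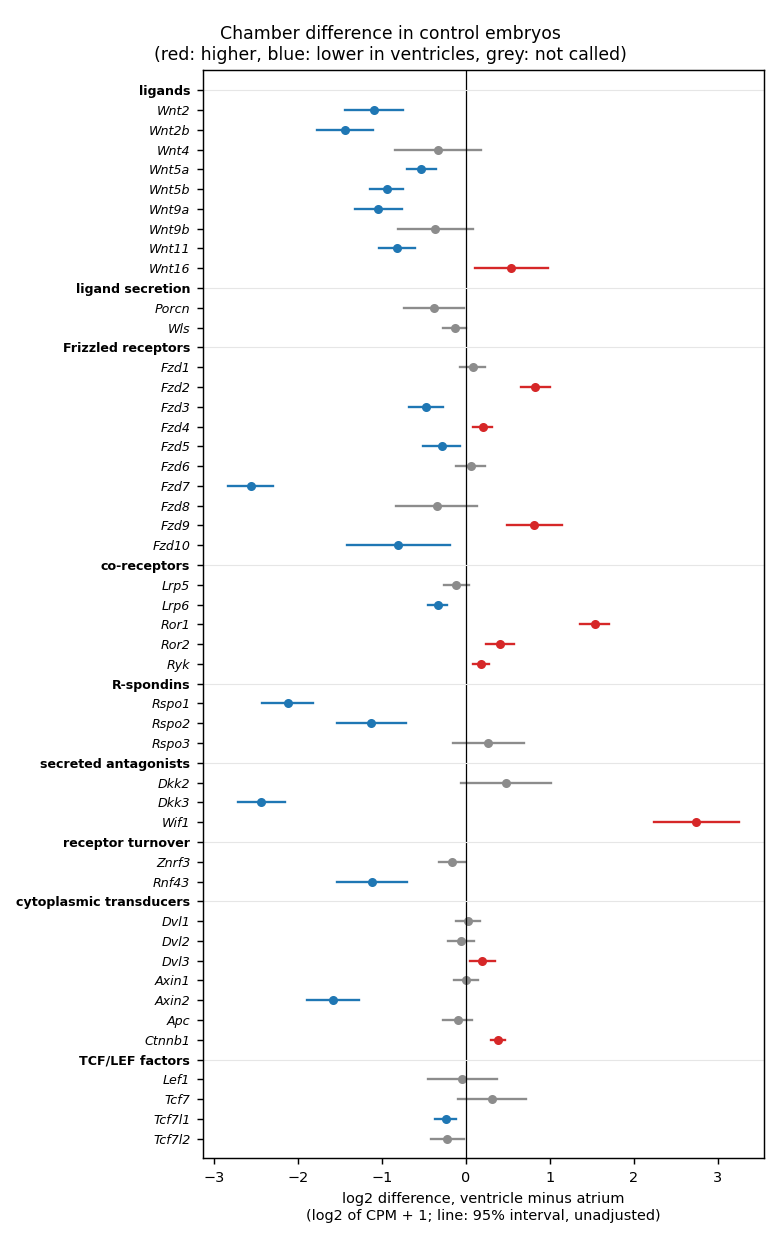
Log2 difference of control ventricles minus control atria on the log2(CPM + 1) scale (x axis) for the 45 tested members grouped by role, with lines over the unadjusted 95% interval, red for called higher in ventricles, blue for called lower and grey for not called. Wif1 (2.74) and Ror1 (1.53) lie farthest toward ventricles and Fzd7 (-2.56) and Dkk3 (-2.43) farthest toward atria.

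Other genes of the pathway were taken from a list of 70, of which 65 had a row and 63 were tested. In dKO atria 8 were called (12.7%, beside 7.47% of all genes tested), 5 higher and 3 lower, and in dKO ventricles 3 (4.76%, beside 2% of all genes tested), 1 higher and 2 lower. Trabd2b, a protease that cleaves Wnt proteins, had 48.2, 45.2, 33.4 and 34.8 CPM in control atria and 67.6, 69.2, 72.6 and 57.8 CPM in dKO atria (0.72 ± 0.12, adjusted p = 0.00352), and was higher in dKO ventricles too (0.96 ± 0.19, adjusted p = 0.0239). Sost, an inhibitor that binds Lrp5 and Lrp6, ran from 6.11 to 7.03 CPM in control atria and from 9.91 to 16.1 CPM in dKO atria (0.83 ± 0.14, adjusted p = 0.00417). Neither gene's groups overlapped in atria.

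Reck (0.34), a partner of Frizzled complexes, the glypican Gpc4 (0.28) and the corepressor Tle4 (0.50) were also higher in dKO atria. Lower were the beta-catenin target Tnfrsf19 (-0.55 ± 0.09, adjusted p = 0.00413) and the polarity genes Daam1 (-0.28) and Celsr1 (-0.34). In dKO ventricles Daam1 (-0.29) and Lgr4 (-0.29), a receptor of R-spondins, were lower. By list, 4 of 15 tested surface modulators (26.7%) were called in dKO atria, all higher, beside 7.47% of all genes tested. The single call among 15 nuclear coregulators (6.67%) is near that background, and 2 of 12 polarity genes (16.7%) and 1 of 7 feedback targets (14.3%) are too few to read against it.

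Of the feedback targets outside the members, 1 of 7 was called in dKO atria. Apart from Tnfrsf19, Nkd1 (-0.17, adjusted p = 0.696), Nkd2 (-0.13), Apcdd1 (0.31), Ccnd1 (0.14), Myc (0.00) and Bambi (0.16) were not called, and the median of all 7 was 0.004 beside -0.005 over all genes tested. Myc ran from 15.7 to 17.3 CPM in control atria and from 14.5 to 18.9 CPM in dKO atria, so its groups overlapped.

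**Figure D5:**
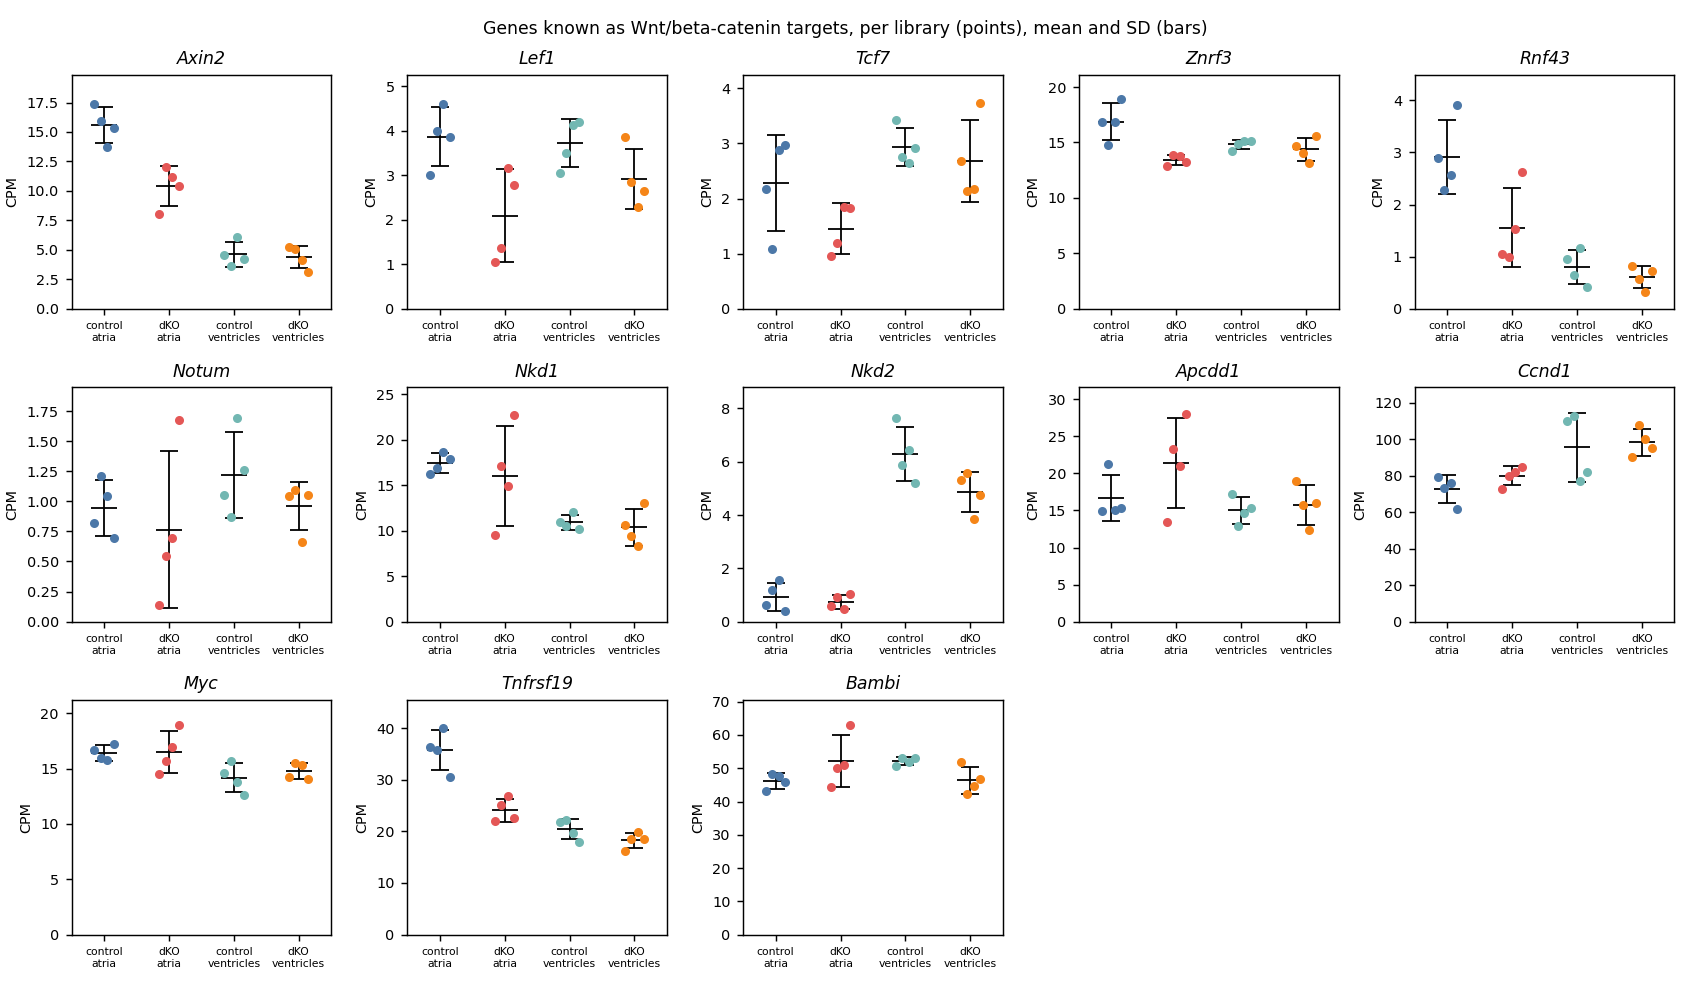
CPM of 13 genes known as targets of beta-catenin (members and others), with 1 point per library and bars at the mean ± SD of 4 libraries in each of the 4 groups. Axin2, Znrf3 and Tnfrsf19 are lower in all 4 dKO atria than in any control atrium, and Myc overlaps.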

How the data were processed

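Libraries were made from 20 ng of total RNA with NEBNext Ultra kits and sequenced to 60 bases from 1 end, per the labels' protocols. The authors used cutadapt and RSEM 1.3.1 on GRCm38, per the submitters' processing notes. The deposited values are CPM, read counts scaled for library size. How they were normalized and filtered, on which annotation and with which use of strand is not given in the sources used here. Every value equals a whole read number plus 0.5, times 1 step per library (100% whole within 0.001), which gave recovered reads.

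Tests used limma 3.58.1 (R 4.3.3) with a mean-variance trend on log2(CPM + 1), two-sided, over 13950 genes (mean CPM of at least 1), with Benjamini-Hochberg adjustment over all of them and calls at an adjusted p under 0.05. Genotypes were compared within each chamber over 8 libraries. The chamber comparison and the difference between chambers used all 16 libraries with embryo as a block, since each embryo gave both (consensus correlation 0.108). Replicates are separate embryos, and genotypes were not paired. edgeR 4.0.16 and DESeq2 1.42.0 ran on recovered reads as alternatives. Each test was tried on simulated data in which 200 genes changed. At a log2 change of 1 it recovered 73% (atria), 71% (ventricles), 82% (control chambers) and 75% (difference between chambers) of them. At a log2 change of 0.5 the shares were 45%, 42%, 45% and 29%, and false calls made up 5.60%, 3.42%, 2.31% and 4.59% of calls. The simulated libraries were drawn independently, with nothing shared by the 2 libraries of an embryo. Fewer genes changed in them than the 1042 called in atria or the 6543 called between control chambers. The simulated shares therefore need not hold for the data.

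The members, the other lists, the tests and the alternatives were chosen with earlier results of these data known. Named are all members called in a dKO comparison or in the difference between chambers, all called between control chambers, the member with the highest mean CPM of each class without a call, and called genes of the other pathway lists. Other members named fall outside that rule and were picked with their values in view, among them Wnt9b, Rnf43, Lef1, Ctnnb1, Dkk2, Wif1 and Notum in atria, Fzd9, Wnt16, Dkk3 and Axin2 in ventricles and all but Wnt5a in the difference between chambers, as were the uncalled feedback targets. Coordinates and exon lengths come from GENCODE M21, which matched 16096 of 16118 IDs, and promoters from RefSeq. Ctnnb1 and Dvl2 overlap genes on the opposite strand (Ulk4 and Acadvl), so their values are uncertain.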

Additional observations from a re-analysis of the deposited data

Results flagged for a closer look

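Of 180 groups of 4 libraries, 14 held a library whose gap to the nearest of the others exceeded Dixon's 95% critical share of the group's range (7.78%), where chance gives about 1 in 20. In dKO atrium 4, Fzd8 (28.4 CPM), Dkk2 (3.78 CPM) and Wif1 (2.93 CPM) stood above the other dKO atria, and Fzd1 (101 CPM) below them. That library also had the highest sums of fibroblast markers (10307 CPM) and macrophage markers (130 CPM) among dKO atria, whose part was not tested.

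In the other groups the library that stood apart was the highest of its group for Fzd1 in control atrium 2 (67.1 CPM), Wnt9b in control atrium 3 (2.67 CPM), Rspo2 in control atrium 1 (3.21 CPM), Wls in dKO atrium 1 (159 CPM), Porcn in dKO ventricle 4 (4.36 CPM) and Dkk2 in control ventricle 1 (2.64 CPM). It was the lowest for Axin1 in control atrium 1 (33.9 CPM), Porcn in dKO atrium 3 (3.89 CPM), Lrp6 in dKO ventricle 2 (75.6 CPM) and Wls in control ventricle 3 (109 CPM).

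Wnt5a was the 1 member called for a dKO difference that differed between chambers (2.22% of 45, beside 2.64% of all genes tested). The dKO difference in ventricles exceeded that in atria by 0.46 on the log2 scale (limma adjusted p = 0.0434). The call was lost with no filter, with no block for the embryo and without any 1 of the embryos other than dKO 1.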

How the results depend on the processing

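The number of members called ranged from 5 to 10 in atria (5 within 1 title number, 5 to 8 without 1 embryo), from 1 to 5 in ventricles (5 with DESeq2, 1 with all 16 libraries and the embryo as replicate block, 1 to 3 without 1 embryo) and from 21 to 29 between control chambers. For the difference between chambers it was 0 with no filter, 0 with no replicate block and 0 to 3 without 1 embryo, against 1. With embryo as a fixed term, an alternative chosen after seeing the data, the counts were 28 and 1. Of the calls in atria, Fzd1, Fzd4, Dkk3 and Wnt5a held in every alternative run, as did Fzd1 in ventricles.

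Directions turned for values near 0. Lrp6 in atria became 0.0703 within 1 title number and ran from -0.0494 to 0.0466 without 1 embryo. Axin2 in ventricles became 0.140 within 1 title number and ran from -0.149 to 0.0605 without 1 embryo. The difference of the Fzd1 response between chambers ran from -0.0621 to 0.0946 without 1 embryo. Over 64 pairs of a gene and a comparison, 1007 of 1108 alternative values kept direction and side of the threshold, 70 lost the call, 20 gained it and 11 reversed. The cause was not tested. Depth limits the members with group means under 3 CPM, such as Wnt9b, Wnt16, Rspo2 and Rnf43, and dKO ventricles had the fewest reads.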
